A study of Mus musculus with 4 samples.

Results

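The secreted Wnt antagonists described here are 7 genes, Sfrp1, Sfrp2, Frzb, Sfrp4, Dkk2, Dkk3 and Wif1, out of 21885 genes counted in spatial gene expression data from mouse hearts. They were chosen by name and by the function of their proteins, and all 7 symbols were found in the gene list of the files. Counts came from Visium arrays, on which polyadenylated RNA is captured by a grid of spots and each spot can cover several cells. Sections of 10 µm were cut from hearts of Collagen1a1-GFP+ mice aged 8 to 12 weeks, which carry a green fluorescent reporter driven by a fibroblast collagen gene in every group, the control included. The groups were 1 control heart, 1 heart at 3 days post infarction (3 dpi) and 2 hearts at 5 dpi, and myocardial infarction was made by permanent ligation of the left anterior descending artery. With a single heart in the control and in the 3 dpi group, levels of whole sections are given with intervals for counting error and no test.

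Wnt proteins signal through Frizzled receptors, which bind them at the cell surface together with the co-receptors Lrp5 and Lrp6, and part of that signal is carried by β-catenin. Sfrp1, Sfrp2, Sfrp4 and Frzb carry a domain like the Wnt-binding domain of Frizzled and bind Wnts outside the cell, and Wif1 binds Wnts through a domain of its own. Dkk2 binds the Lrp co-receptors, whereas Dkk3 is a divergent member of the Dickkopf family whose part in Wnt signalling is less settled. Wnt antagonists are known from fibroblasts of healing infarcts, where loss or gain of single members has altered scar formation.

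Kept spots held a median of 4967.5 to 6935 UMIs (unique molecular identifiers, each counting 1 captured RNA molecule), and 3742105 to 9540940 UMIs per section came from genes outside the mitochondrial genome. Levels are given as CPM, the UMIs of a gene per 1000000 of these non-mitochondrial UMIs. Cardiomyocyte RNA was present in each section: 12 cardiomyocyte genes made up 8.19% to 11.4% of non-mitochondrial UMIs at the 90th percentile of spots. The pair of hearts at 5 dpi is named here by the labels, 5 dpi F (female) and 5 dpi M (male), but Y-linked genes gave 704 UMIs in 5 dpi F and 1 UMI in 5 dpi M. The control and 3 dpi hearts are labelled female and had 0 Y-linked UMIs each, so sex and heart cannot be told apart. Both labels at 5 dpi thus go against the Y-linked RNA and may have been exchanged, and F and M stand for the labels only. Both sections belong to the same group, so an exchange would leave the groups as they are. All 3 infarcted sections enter the tests below, and the members' calls between spot classes and between core and rim were also made without each section in turn.

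Of the 7 members, 5 (Sfrp1, Sfrp2, Frzb, Dkk2 and Dkk3) were at least 2-fold higher in each of the 3 infarcted sections than in the control, and 0 members were at least 2-fold lower in each. Among 13753 genes with enough UMIs, 24.0% met the first condition and 5.05% the second. Sfrp4 and Wif1 stayed near the counting floor in all sections.

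Sfrp1 was at 8.28 CPM in the control (95% exact Poisson interval 5.63 to 11.8), 61.5 at 3 dpi (56.3 to 67.0), 232 in 5 dpi F and 166 in 5 dpi M. Its level was thus lowest in the control and highest in both 5 dpi sections, 7.42-fold above the control at 3 dpi and 20.1- to 28.0-fold at 5 dpi. Sfrp2 was at 2.94 CPM in the control (1.47 to 5.26), 42.6 at 3 dpi (38.3 to 47.3), 127 in 5 dpi F and 82.0 in 5 dpi M. This was a 14.5-fold difference at 3 dpi and a 27.9- to 43.3-fold difference at 5 dpi. Frzb, also named Sfrp3, was at 4.81 CPM in the control (2.85 to 7.60), 35.1 at 3 dpi (31.2 to 39.4), 83.2 in 5 dpi F and 79.9 in 5 dpi M. The 2 hearts at 5 dpi lay close together at 81.5 ± 2.38 CPM (SD, n = 2).

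Sfrp4, the remaining family member with a Frizzled-like domain, had 2 UMIs in the control, 7 at 3 dpi, 11 in 5 dpi F and 6 in 5 dpi M. These are levels of 0.534, 0.836, 1.15 and 0.722 CPM with overlapping intervals, so no difference between sections was detectable at this depth. Wif1 had 6, 7, 12 and 6 UMIs in the same order. Its levels of 1.60, 0.836, 1.26 and 0.722 CPM also had overlapping intervals.

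Dkk2 was not detected in the control, where 0 UMIs allow a level of up to 0.802 CPM (3 counts), and had 18, 45 and 33 UMIs in the infarcted sections. Its levels there were 2.15 CPM at 3 dpi, 4.72 in 5 dpi F and 3.97 in 5 dpi M, each 2.68-fold or more above this limit in the control. Dkk3 was at 5.08 CPM in the control (3.06 to 7.93), 20.5 at 3 dpi (17.6 to 23.8), 55.9 in 5 dpi F and 42.8 in 5 dpi M. All 3 infarcted sections lay above the control by 4.05-fold at 3 dpi, and by 11.003- and 8.43-fold at 5 dpi. Intervals cover counting error only, not the spread between hearts.

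**Figure D1:**
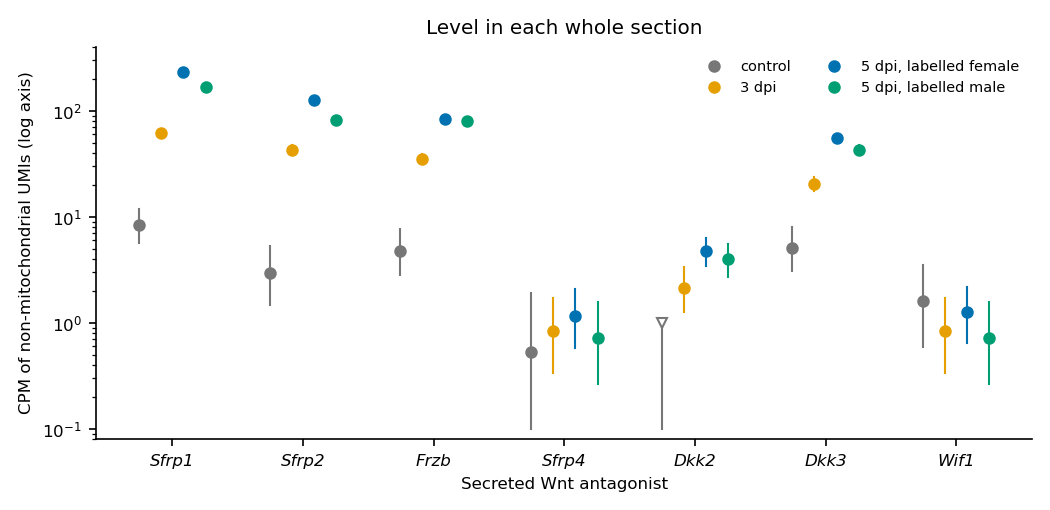
CPM of each antagonist in each whole section on a log axis, with 95% exact Poisson intervals as bars (cut at the lower edge of the axis) and an open triangle at the upper limit where 0 UMIs were counted. Sfrp1, Sfrp2, Frzb, Dkk2 and Dkk3 lie lowest in the control and highest in both 5 dpi sections, whereas the intervals of Sfrp4 and Wif1 overlap in all sections.

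RefSeq promoter windows were held for 4 of the 7 genes, Sfrp2, Frzb, Dkk2 and Wif1. The stretch before the start of transcription is shown for Frzb and Dkk2, which were higher in CPM in each infarcted section than in the control, beside that of Wif1, whose intervals overlapped in all sections, on build GRCm38.p6. Bases inside an annotated transcript were left out, which shortened the Dkk2 stretch to 224 bases and removed that of Sfrp2. Capitals mark matches on either strand to CTTTGA, the core letters of sites for the β-catenin partners TCF and LEF, or to TATAAA, the letters of a TATA box.
Frzb, chr2:80447397-80447646, minus strand: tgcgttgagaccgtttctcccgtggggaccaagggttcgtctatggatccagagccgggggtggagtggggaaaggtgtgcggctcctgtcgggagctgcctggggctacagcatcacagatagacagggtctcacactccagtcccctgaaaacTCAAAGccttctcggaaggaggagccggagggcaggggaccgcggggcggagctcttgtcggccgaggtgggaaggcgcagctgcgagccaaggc
Dkk2, chr3:132085042-132085265, plus strand: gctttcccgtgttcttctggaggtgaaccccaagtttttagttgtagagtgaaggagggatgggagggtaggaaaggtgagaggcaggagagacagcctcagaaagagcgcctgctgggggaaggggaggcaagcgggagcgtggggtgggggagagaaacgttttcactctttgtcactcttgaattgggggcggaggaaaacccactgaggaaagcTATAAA
Wif1, chr10:121033754-121034003, plus strand: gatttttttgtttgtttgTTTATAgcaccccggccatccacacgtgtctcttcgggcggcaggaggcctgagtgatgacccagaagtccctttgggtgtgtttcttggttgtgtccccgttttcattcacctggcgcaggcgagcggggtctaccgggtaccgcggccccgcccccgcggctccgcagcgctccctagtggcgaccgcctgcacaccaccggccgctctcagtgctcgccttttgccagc
Within 250 bases before the start, CTTTGA occurred 1 time for Frzb, 95 bases before the start and read on the opposite strand, and TATAAA 1 time for Dkk2, 32 bases before the start. The match of Wif1 to TATAAA lay 232 bases before the start, on the opposite strand. Of 32851 promoters of that length, 13.8% held CTTTGA and 12.4% held TATAAA, so single matches are common, and a match says only that these letters are present.

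To ask where in the tissue the antagonists were found, spots were divided by how much cardiomyocyte RNA they held. Spots were called poor when the share of the 12 cardiomyocyte genes was under 0.25 of the 90th percentile of their own section, low from 0.25 to 0.5, mid from 0.5 to 0.75 and rich above that. Poor spots made up 29.6% of spots at 3 dpi, 62.0% in 5 dpi F and 41.5% in 5 dpi M, whereas in the control 1099 of 1146 spots were rich. The UMIs of each class were added up per section. This gave 12 sums from the infarcted hearts, which were compared with edgeR with the section as a block. In such sums, more cells of a type and more RNA per cell cannot be told apart.

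Sfrp1, Sfrp2, Frzb and Dkk3 rose in poor against rich spots, 4 of the 4 members that passed the filter on low counts. Of all 10509 genes tested 57.9% were called, 30.8% of them as higher and 27.0% as lower out of all tested, so a call in this comparison is common. Of the calls 53.3% were higher, and 74.3% without TMM scaling. The 4 members had a median log2 fold change of 1.65, beside 0.09 over all genes tested. Sfrp4, Dkk2 and Wif1 did not pass the filter and are given by their UMIs. Without either 5 dpi section the same count of 4 was called.

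Sfrp2 had the steepest gradient of the tested members. In poor spots it was at 74.6 CPM at 3 dpi, 166 in 5 dpi F and 141 in 5 dpi M, against 9.66, 17.5 and 8.31 CPM in rich spots. Poor spots were above rich spots in all 3 sections and no values of the classes overlapped, with a log2 fold change of 3.05 ± 0.23 (SE; adjusted p = 4.91e-10, edgeR with Benjamini-Hochberg adjustment). Of all Sfrp2 UMIs of a section, 67.2%, 91.4% and 86.8% lay in poor spots, which held 38.4%, 70.0% and 50.6% of all non-mitochondrial UMIs. Sfrp2 was also the only member called between poor and low spots, with a log2 fold change of 0.998 ± 0.19 (edgeR adjusted p = 0.000343), where 26.2% of genes were called. This call was lost with class limits 0.2, 0.4 and 0.8 (log2 0.58, edgeR adjusted p = 0.0515). Low spots were at 33.9, 70.9 and 69.9 CPM, between the poor and the rich class in each section.

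Frzb was at 46.6, 96.6 and 124 CPM in poor spots at 3 dpi, in 5 dpi F and in 5 dpi M. In rich spots it was at 11.4, 34.1 and 21.0 CPM, a log2 fold change of 1.63 ± 0.20 (edgeR adjusted p = 8.37e-07). Each section had its highest Frzb level in poor spots, and between poor and low spots the log2 difference was 0.30 ± 0.18 (edgeR adjusted p = 0.246).

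Dkk3 was at 22.1, 59.0 and 61.0 CPM in poor spots against 11.4, 22.8 and 9.62 CPM in rich spots, a log2 fold change of 1.33 ± 0.25 (edgeR adjusted p = 0.000163) that dropped to 0.81 without 5 dpi M (edgeR adjusted p = 0.0160). Its highest level was in low spots, at 25.1, 82.2 and 72.9 CPM in the same order of sections. All 3 sections thus had their highest level outside the spots poorest in muscle RNA, but the log2 difference between poor and low spots, at -0.44 ± 0.21, did not pass the threshold (edgeR adjusted p = 0.144).

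Low against rich spots were called for the same 4 members, where 30.2% of genes were called and 14.8% as higher. The log2 fold changes were 2.05 ± 0.27 for Sfrp2, 1.77 ± 0.28 for Dkk3, 1.47 ± 0.38 for Sfrp1 and 1.33 ± 0.23 for Frzb. The call of Sfrp1 was lost without 5 dpi F (log2 1.52, edgeR adjusted p = 0.0732) or without 5 dpi M (1.09, edgeR adjusted p = 0.0588).

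Dkk2 UMIs lay mostly in poor spots, at 83.3% of those at 3 dpi, 93.3% in 5 dpi F and 97.0% in 5 dpi M. In poor spots it had 15, 42 and 32 UMIs in the same order, and in rich spots 0, 1 and 0 UMIs. Low and mid spots of the infarcted sections held 4 and 2 UMIs in all. With the 0 UMIs in rich spots set to 3 counts, the ratio of poor to rich spots was 2.74 at 3 dpi and 5.79 in 5 dpi M. In 5 dpi F this ratio was 7.19 (95% exact interval 1.22 to 291). The intervals at 3 dpi were 2.61 to 7.69 CPM in poor and 0 to 2.10 CPM in rich spots. Fitted without the filter on low counts, Dkk2 was called higher (log2 4.26, edgeR adjusted p = 3.67e-06), but this fitted value rests on 1 UMI in rich spots and does not measure the size of the difference.

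Wif1 went the other way. It had 0, 4 and 1 UMIs in poor spots and 5, 4 and 4 UMIs in rich spots, although poor spots held more UMIs in all. With the 0 UMIs in poor spots at 3 dpi set to 3 counts, rich spots were 3.05-fold higher. The intervals there overlapped, at 0.922 to 6.63 CPM in rich and 0 to 1.15 CPM in poor spots. Rich spots were 5.84-fold higher in 5 dpi F (95% exact interval 1.09 to 31.4) and 7.37-fold in 5 dpi M (0.729 to 363). Without the filter Wif1 had a log2 fold change of -3.37 (edgeR adjusted p = 0.000916), a value that rests on 5 UMIs in poor and 13 UMIs in rich spots. Sfrp4 had 3, 11 and 5 UMIs in poor spots and 1, 0 and 1 UMIs in rich spots, too few to compare the classes within a section.

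**Figure D2:**
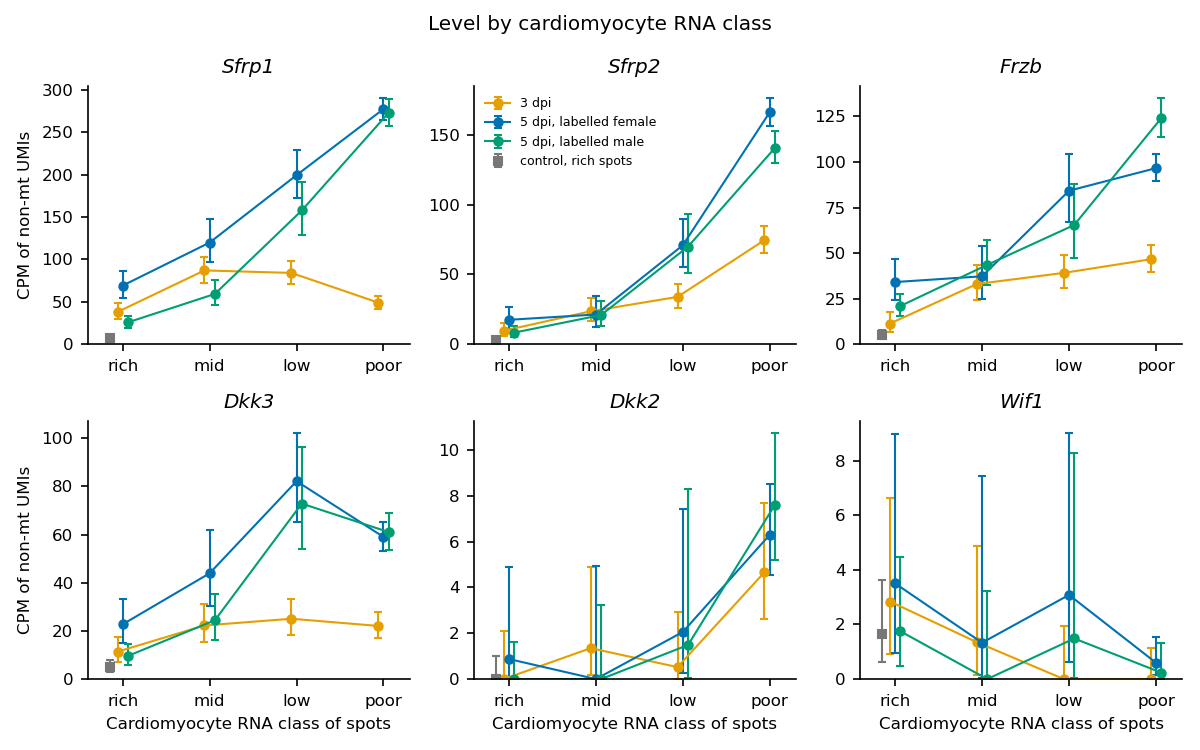
CPM of 6 antagonists in rich, mid, low and poor spots of each infarcted section, with rich spots of the control as grey squares; bars are 95% exact Poisson intervals and each panel has its own linear axis from 0. Sfrp2 and Frzb are highest in poor spots, Dkk3 in low spots, and Sfrp1 in poor spots at 5 dpi and in mid and low spots at 3 dpi.

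Sfrp1 had a different profile at the 2 time points. At 3 dpi it was at 38.1 CPM in rich, 87.0 in mid, 84.1 in low and 49.1 in poor spots, so that its highest level lay at intermediate amounts of cardiomyocyte RNA. In 5 dpi F it was at 69.2 CPM in rich, 120 in mid, 199 in low and 277 in poor spots, and in 5 dpi M at 25.8, 59.3, 158 and 273 CPM. Both 5 dpi sections therefore had their highest level in poor spots. The intervals of the poor class were 41.8 to 57.4 CPM at 3 dpi, 265 to 290 and 257 to 289 at 5 dpi. At 3 dpi the interval of the rich class, 29.5 to 48.3 CPM, overlapped that of the poor class. Poor spots held 30.7% of Sfrp1 UMIs at 3 dpi, below their 38.4% of all non-mitochondrial UMIs. They held 83.6% in 5 dpi F and 83.1% in 5 dpi M, above 70.0% and 50.6% of all.

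The log2 CPM ratio of Sfrp1 in poor over rich spots was 0.36 at 3 dpi, 1.99 in 5 dpi F and 3.35 in 5 dpi M. Fitted over all 3 sections, Sfrp1 was higher in poor than in rich spots by 1.67 ± 0.36 on the log2 scale (edgeR adjusted p = 0.000502). This value depended on the section left out, at 2.28 without 3 dpi, 1.64 without 5 dpi F (edgeR adjusted p = 0.0242) and 0.96 without 5 dpi M (edgeR adjusted p = 0.0448). Between poor and low spots the difference was 0.20 ± 0.33 (edgeR adjusted p = 0.708). The interaction of class and time, fitted after the profile had been seen, gave a poor-against-rich difference that was larger at 5 dpi than at 3 dpi by 2.38 ± 0.40 on the log2 scale (edgeR adjusted p = 0.000862). Of all genes tested, 1.35% were called in this interaction, and the other 3 members tested were not, with 1.13 for Dkk3 (adjusted p = 0.450), 0.80 for Sfrp2 (adjusted p = 0.616) and 0.10 for Frzb (adjusted p = 0.978). With library sizes taken from fibroblast genes the difference for Sfrp1 was 1.39 (edgeR adjusted p = 0.00812). All 3 residual degrees of freedom of this fit come from the pair of hearts at 5 dpi, so the single heart at 3 dpi is assumed to vary like them, and time and heart cannot be told apart.

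Poor spots at 5 dpi were at least 2-fold above those at 3 dpi in both sections for Sfrp1, Frzb and Dkk3, where 3.09% of genes were. Sfrp1 was 5.64- and 5.56-fold higher, Frzb 2.07- and 2.66-fold, and Dkk3 2.67- and 2.77-fold, whereas Sfrp2 was 2.23- and 1.88-fold higher. In low spots Sfrp2 and Dkk3 met the same condition, against 2.38% of genes. At least 2-fold below 3 dpi in both were 0 members in poor, low or rich spots, against 2.63%, 2.18% and 1.15% of genes. In rich spots 0 members were at least 2-fold above 3 dpi in both sections, against 2.29% of genes. Frzb was there at 3.00- and 1.85-fold and Sfrp1 at 1.82- and 0.678-fold of the 3 dpi level. These are comparisons with 1 heart at 3 dpi and have no test. The make-up of poor spots also differed between the times. Activated fibroblast genes summed to 4968 CPM in poor spots at 3 dpi and to 9950 and 9785 CPM at 5 dpi, and general fibroblast genes to 1473 against 2329 and 2627 CPM. The 12 cardiomyocyte genes summed to 10766 CPM at 3 dpi against 3594 and 5001 CPM at 5 dpi. The part of these differences in the members' levels was not tested.

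**Figure D3:**
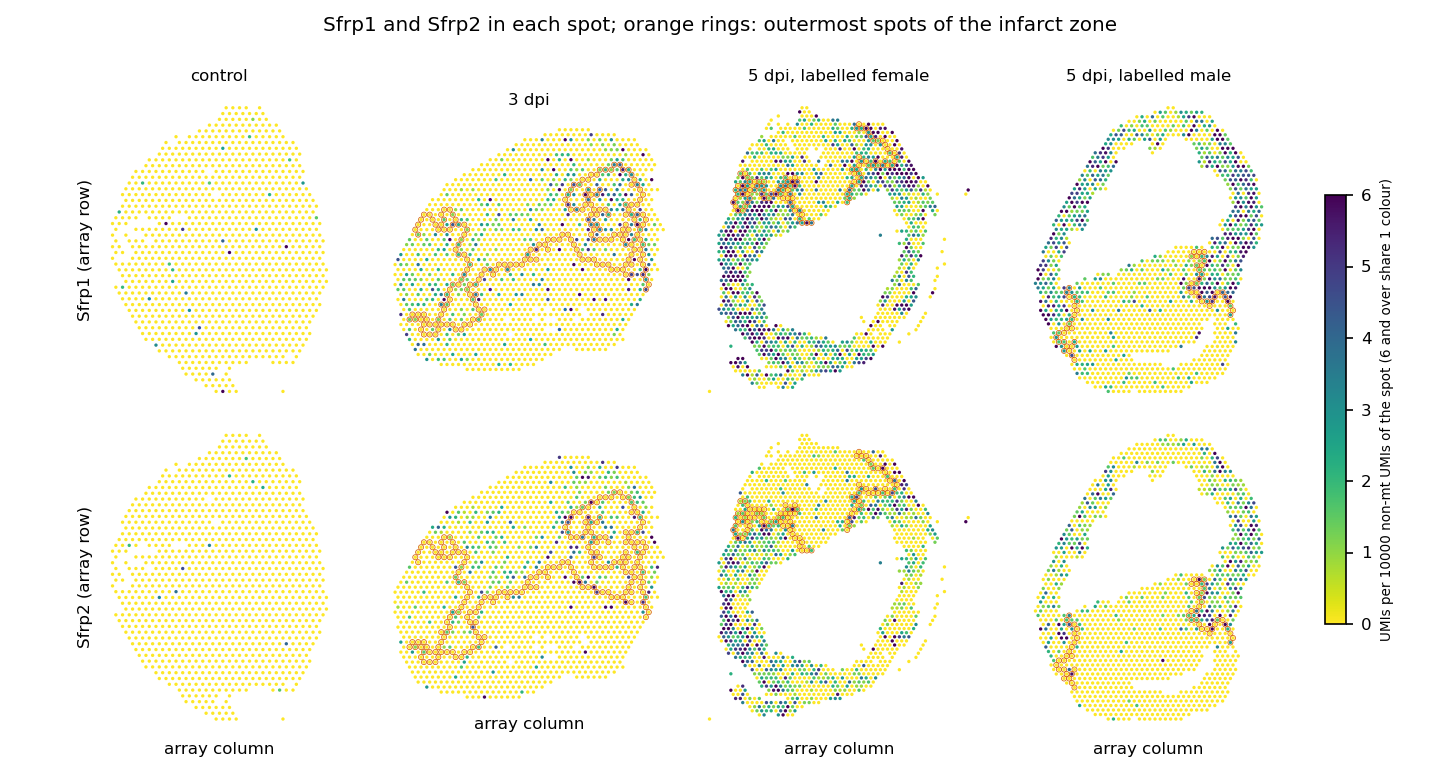
Each dot is a kept spot at its array position, coloured by the UMIs of Sfrp1 (top) or Sfrp2 (bottom) per 10000 non-mitochondrial UMIs of that spot, with orange rings around the outermost spots of the infarct zone. Both genes are sparse in the control and, at 5 dpi, dense inside the infarct, and at 3 dpi Sfrp1 is also seen on the muscle side of the border.

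Rich spots of the infarcted hearts were set beside rich spots of the control, to ask whether antagonists also differed where cardiomyocyte RNA was high. Sfrp1 was at 38.1, 69.2 and 25.8 CPM there against 7.75 CPM in the control, a 3.33- to 8.93-fold difference. Sfrp2 was 2.73- to 5.75-fold and Frzb 2.28- to 6.85-fold above the control. These 3 genes were at least 2-fold higher in each infarcted section, where 6.08% of genes were, and 0 members were at least 2-fold lower in each, where 0.453% of genes were. Dkk3 was 2.28-, 4.57- and 1.93-fold above the control, and Dkk2 had 1 UMI in all rich spots of the infarcted hearts. Cell type markers differed between these spots as well. In rich spots 6 activated fibroblast genes summed to 95.7 CPM in the control, with 1 gene at 0, and to 756, 1720 and 1014 CPM after infarction. The sum of 8 macrophage genes was 768 CPM against 1457, 1717 and 1244 CPM, and that of 8 general fibroblast genes 2426 CPM against 2090, 2081 and 1642 CPM. The part of these cells in the differences was not tested.

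The infarct zone (IZ) was drawn as connected patches of at least 10 spots under 0.5 of the 90th percentile, and distance from its border was counted in spot steps. Sfrp1 at 3 dpi was highest 1 to 2 steps outside the border, at 87.8 CPM (95% exact Poisson interval 72.3 to 106). It was at 39.3 CPM more than 4 steps inside. The interval outside overlapped those 1 to 2 steps inside (74.3 CPM, 62.8 to 87.3) and 3 to 4 steps inside (67.8 CPM, 53.7 to 84.5). At 5 dpi Sfrp1 was highest 3 to 4 steps inside, at 402 CPM in 5 dpi F and 300.2 CPM in 5 dpi M. In 5 dpi M that interval (247 to 362) overlapped the one more than 4 steps inside (246 to 278). Its levels 1 to 2 steps outside were 128 and 71.99 CPM. Sfrp2 had its highest level 3 to 4 steps inside in every infarcted section, at 87.5, 211 and 206 CPM, against 29.0, 22.0 and 33.1 CPM 1 to 2 steps outside. Frzb was highest deepest inside at 5 dpi, at 99.4 and 124 CPM, with intervals that overlapped those 3 to 4 steps inside. At 3 dpi it was highest 3 to 4 steps inside, at 51.5 CPM (39.3 to 66.3), against 39.8 CPM (31.2 to 50.1) deepest inside.

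Dkk3 fell from the rim to the core of the IZ and was the only member called there, but in 5 dpi M its highest level lay between them, at 91.96 CPM 3 to 4 steps inside. In the rim, 1 to 2 steps inside the border, it was at 31.1, 79.7 and 79.9 CPM, and in the core, more than 4 steps inside, at 17.5, 58.5 and 57.6 CPM. The core was lower in all 3 sections, with a log2 fold change of -0.72 ± 0.16 (edgeR adjusted p = 0.00571), and 18.4% of genes were called, 11.7% as lower and 6.74% as higher. The call was lost with DESeq2 (log2 -0.71, adjusted p = 0.0713), without the section block (log2 -0.53, edgeR adjusted p = 0.560), and with library sizes from fibroblast genes (log2 -0.09, edgeR adjusted p = 0.670). Fibroblast library sizes raised the values of all genes by a median of 0.66 on the log2 scale, and 56.7% of genes were then called higher in the core. Dkk3 lay below the median of all genes under both scalings (-0.01 and 0.65). A change of library size moves all genes alike, so these positions are not separate results. The activated fibroblast list was at 5349, 9690 and 10888 CPM in the rim and 3962, 9654 and 9314 CPM in the core, with 3 of 6 genes lower. The macrophage list was at 4996, 6170 and 4560 CPM in the rim and 7750, 10577 and 10414 CPM in the core, with 5 of 8 genes higher. Of the neutrophil genes 2 of 2 tested were higher, and of the mural genes 3 of 6 were lower. Of the 8 general fibroblast genes 3 were lower and 0 higher, with a median log2 fold change of -0.31. Per 1000 UMIs of these fibroblast genes, Dkk3 was at 16.8, 25.7 and 26.2 in the rim and 14.6, 26.7 and 22.9 in the core. The part of these cells in the result was not tested.

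Of the other members, Sfrp1 gave -0.34 ± 0.19, Sfrp2 -0.11 ± 0.14 and Frzb 0.09 ± 0.17 on the log2 scale between core and rim, none past the threshold. With fibroblast library sizes, which shift all genes by 0.66, they were at 0.28, 0.52 and 0.73, beside a median of 0.65 over all genes. Sfrp2 also turned without TMM scaling, to 0.06 (edgeR adjusted p = 0.822). With the zone limit at 0.35, Sfrp1 at -0.48 (edgeR adjusted p = 0.0131) and Sfrp2 at -0.60 (edgeR adjusted p = 0.00401) were called as lower, and Frzb turned to -0.27 (edgeR adjusted p = 0.341).

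**Figure D4:**
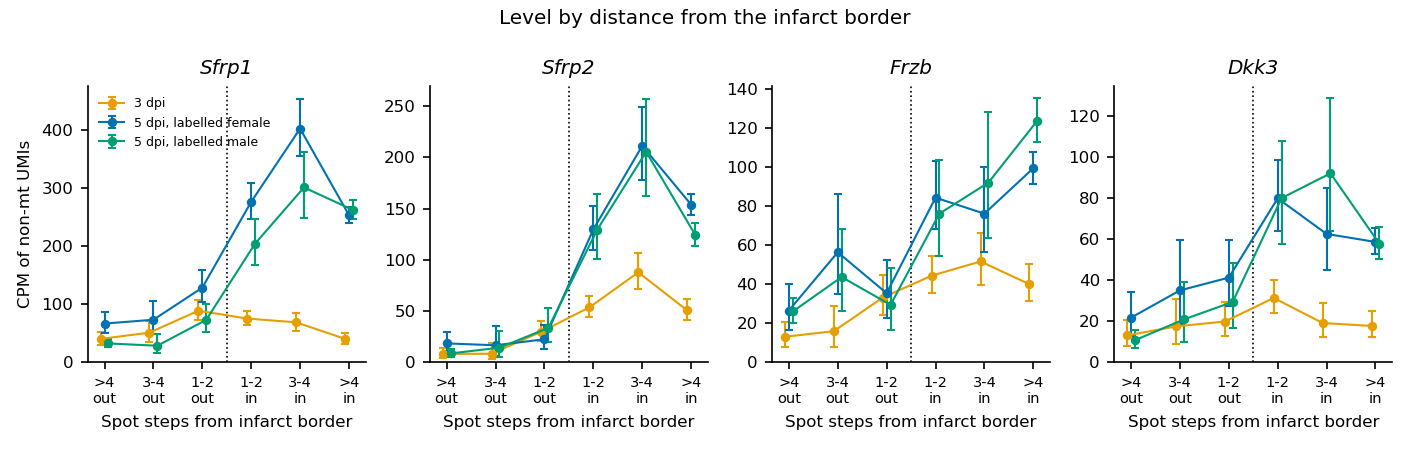
CPM of the 4 tested antagonists by distance from the infarct border (dotted line) in each infarcted section, in spot steps outside and inside the IZ, with 95% exact Poisson intervals as bars and linear axes from 0. Sfrp2 is highest 3 to 4 steps inside in all sections, and Sfrp1 is highest outside the border at 3 dpi and 3 to 4 steps inside at 5 dpi.

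Cell type markers moved with the same spot classes. The 6 activated fibroblast genes (Postn, Cthrc1, Fn1, Lox, Ddah1 and Ptn) were all called higher in poor than in rich spots, with summed levels of 4968 to 9950 CPM against 756 to 1720 CPM. The 8 macrophage genes were also all higher, at 7927 to 10923 CPM against 1244 to 1717 CPM. Of the 8 general fibroblast genes, 4 were higher and 1 lower, and their sum was at 1473, 2329 and 2627 CPM in poor spots and 2090, 2081 and 1642 CPM in rich spots, in the order of the sections. Mesothelial genes were at 9.33, 89.1 and 18.1 CPM in poor spots and 1.14, 15.8 and 11.4 CPM in rich spots. Neutrophil genes were at 320.5, 248 and 224 CPM in poor spots and 26.7, 78.8 and 21.9 CPM in rich spots, with 2 of 2 tested called higher. Mural genes were called higher for 1 of 6 and lower for 3 of 6, and endothelial genes lower for 3 of 6. The mitochondrial share of UMIs was 5.36%, 3.25% and 2.07% in poor spots against 39.0%, 40.8% and 28.7% in rich spots. The part of these differences in the results was not tested. The 3 valve genes summed to 0.311 to 1.498 CPM in poor spots, with 2 of them at 0 in each section.

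Counted per 1000 UMIs of the general fibroblast genes, Sfrp2 was at 50.6, 71.4 and 53.5 in poor spots and 4.62, 8.41 and 5.06 in rich spots. Sfrp1 was at 33.3, 119 and 104 against 18.2, 33.2 and 15.7, and in rich spots of the control at 3.19. With library sizes from these genes, all 4 tested members were still called in poor against rich spots, by 3.31 for Sfrp2, 1.91 for Sfrp1, 1.85 for Frzb and 1.55 for Dkk3 on the log2 scale. This scaling raised all genes by a median of 0.31, and 49.1% of genes were called, 33.7% as higher. Per 1000 UMIs of activated fibroblast genes, Frzb was at 9.38, 9.71 and 12.7 in poor and 15.04, 19.8 and 20.7 in rich spots. Dkk3 was at 4.44, 5.93 and 6.24 against 15.04, 13.2 and 9.49. Both were thus lower in poor spots of each section. Sfrp1 was at 9.89, 27.86 and 27.89 against 50.4, 40.2 and 25.4, higher in poor spots only in 5 dpi M. Sfrp2 was at 15.02, 16.7 and 14.4 against 12.8, 10.2 and 8.19, higher in each section. These ratios were not tested.

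Within poor spots, the 10% of spots with the highest share of fibroblast genes were set beside the others, as a description. Sfrp1 was at 141 CPM against 40.0 CPM in the other poor spots at 3 dpi, and at 478 against 256 and 448 against 258 CPM at 5 dpi. The ratios of Sfrp2 were 1.43, 1.81 and 2.95, those of Frzb 1.54, 1.75 and 1.998 and those of Dkk3 2.04, 1.87 and 1.84, so all 4 were higher in fibroblast-rich spots of each section. In spots with the highest share of macrophage genes, Sfrp1, Frzb and Dkk3 were lower at 3 dpi, at 0.540, 0.450 and 0.353 of the other poor spots, whereas Sfrp2 was at 117 CPM against 69.3 CPM. At 5 dpi the macrophage ratios of Sfrp1 were 1.49 and 1.40, and those of Dkk3 0.944 and 0.674.

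Over the 12 sums, the genes most like each member in log2(CPM + 1) were looked up among 8435 genes. Pearson's r is given as a description, since the sums share sections and the gradient of muscle RNA. The nearest were Mxra8 (0.966), Tmem176b (0.953) and Mfap4 (0.950) for Sfrp1, and Thbs1 (0.983), Nek6 (0.982) and Tor2a (0.979) for Sfrp2. For Frzb they were Chpf2 (0.968), Adamts10 (0.967) and Sparc (0.962), and for Dkk3 Ltbp3 (0.986), Serpinf1 (0.984) and Bgn (0.978). Between members, r ran from 0.809 for Sfrp2 with Dkk3 to 0.938 for Sfrp1 with Dkk3.

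The other genes of the pathway were counted in the same comparison of poor with rich spots. Of 79 further Wnt genes, 32 passed the filter on low counts, and 10 rose and 7 fell. These shares lay close to the 30.8% higher and 27.0% lower of all genes tested. Without TMM scaling, which had lowered the fitted log2 values of poor against rich by 0.42 for all genes, 17 of the 32 rose and 4 fell, beside 5378 of 10509 genes that rose. Few ligands could be tested: of 19 Wnt genes only Wnt5b passed the filter, at -0.62 ± 0.36 on the log2 scale (edgeR adjusted p = 0.151), and it fell in poor against low spots by 1.55 ± 0.34 (edgeR adjusted p = 0.00150). Wls, which carries Wnts to the cell surface, rose by 0.40 ± 0.14 (edgeR adjusted p = 0.0170). Of 10 other antagonists only Igfbp4 passed, an insulin-like growth factor binding protein that can also block Wnt receptors, at 0.20 and not called.

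Among 13 of 20 receptors and co-receptors tested, 4 rose and 5 fell, where 30.8% of all genes were called higher and 27.0% lower. Fzd2, a Wnt receptor, was at 37.6, 57.8 and 56.5 CPM in poor spots against 11.9, 21.0 and 12.7 CPM in rich spots, and rose by 1.35 ± 0.22. Fzd5 rose by 1.70 ± 0.38 and Fzd1 by 0.95 ± 0.22. Lgr6, a receptor for R-spondins, was at 7.15, 3.00 and 7.13 CPM against 28.4, 11.4 and 21.9 CPM, and fell by 2.25 ± 0.25. Fzd6 fell by 1.59 ± 0.22 and Kremen1, a receptor of Dickkopf proteins, by 1.51 ± 0.14. The other called receptors, named after their values were seen, were Ryk at 0.46, Lgr4 at -1.04 and Fzd4 at -0.92, the last with that direction in 2 of 3 sections.

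Of 12 target genes 5 were tested and 4 were called, where 57.9% of all genes were. Ccn4, a matricellular protein first found as Wnt-induced, was at 69.6, 104 and 82.7 CPM in poor spots against 7.39, 14.0 and 5.69 CPM in rich spots and rose by 2.92 ± 0.21 (edgeR adjusted p = 2.24e-10). Myc rose by 1.51 ± 0.28 and Nkd2, which binds Dishevelled, by 1.301 ± 0.24. Ccnd1, named after its value was seen, was at -0.75 ± 0.24 and called as lower, with that direction in 2 of 3 sections. Apcdd1, also named after its value was seen, was at 0.58 ± 0.34 and not called (edgeR adjusted p = 0.161). Axin2, a widely used target of β-catenin, had at most 2.05 CPM in any sum and did not pass the filter. Of 11 intracellular genes 2 rose, Dvl2 by 1.31 ± 0.28 and Axin1 by 0.55 ± 0.20, 1 fell, Dvl3, named after its value was seen, at -0.62 ± 0.19 with that direction in 2 of 3 sections, and 8 were not called, among them Ctnnb1, which encodes β-catenin. The 3 calls among these 11 genes compare with 57.9% of all genes called.

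**Figure D5:**
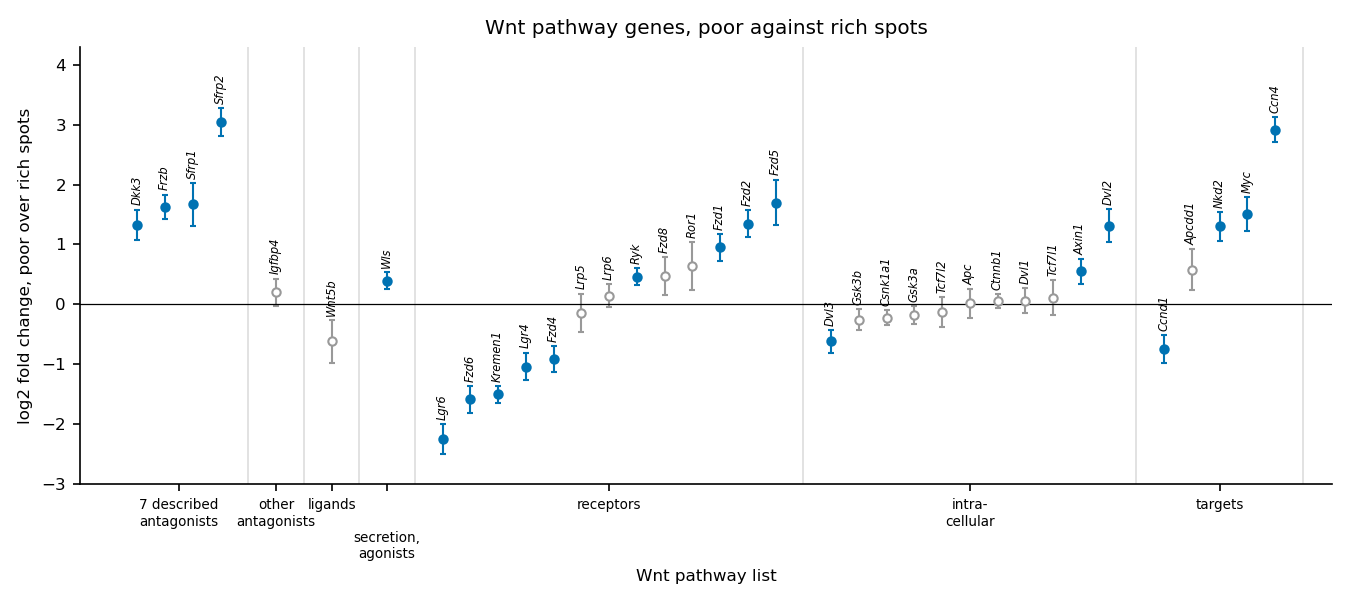
Log2 fold change of poor over rich spots from edgeR for each tested Wnt pathway gene, grouped by list, with standard errors as bars; filled blue points passed the threshold and open grey points did not. All 4 tested antagonists described here lie above 0, whereas receptors lie on both sides of it.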

How the data were processed

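Visium libraries were read from 4 mouse heart sections. The authors deposited raw, unscaled UMI counts made with Space Ranger 1.3.1 per the file headers, after marking by hand which spots lay under tissue. The submitters' processing notes name mm10, whereas the study's methods name an Ensembl-based mouse reference, so positions printed for promoters come from RefSeq (GRCm38.p6) and not from the files. The members and gene lists were chosen with earlier results of these data known.

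Spots on tissue with fewer than 500 UMIs, fewer than 250 genes or more than 50% mitochondrial UMIs were dropped, which left 1146, 1741, 1535 and 1423 spots in the control, at 3 dpi, in 5 dpi F and in 5 dpi M, with 3742105, 8374573, 9540940 and 8314946 non-mitochondrial UMIs. In 5 dpi M, 623 spots outside the tissue mask were left out. Levels were given as CPM with 95% exact Poisson intervals, and a count of 0 with a limit of 3 counts. Intervals cover counting error only.

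UMIs were summed by class and section, and sums were tested with edgeR 4.0.16 (quasi-likelihood, TMM, filterByExpr; limma 3.58.1, R 4.3.3) with the section as a block, because the classes of a section share its heart. The Benjamini-Hochberg adjustment ran over all genes tested, with a threshold of 0.05. The 12 cardiomyocyte genes that set the classes and 13 mitochondrial genes were left out of calls. Whole sections were compared among genes with at least 10 UMIs in all. Hearts, not spots, are the replicates, and nothing in the labels says more about their independence. With the section as a block, p-values measure only how differences within a section vary between these sections. DESeq2 1.42.0 and other filters, scalings, class limits and left-out sections were alternatives. Named Wnt genes are at most the 3 highest and 3 lowest called per list with 1 direction in 3 of 3 sections. Wnt5b, Igfbp4, Axin2, Apcdd1, Ctnnb1, Ryk, Lgr4, Fzd4, Dvl3 and Ccnd1 fall outside this rule and were named after their values were seen. Python 3.11.15 with NumPy 2.4.6 was used.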

Additional observations from a re-analysis of the deposited data

Results flagged for a closer look

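Sfrp1 was picked out because its difference between poor and rich spots was larger at 5 dpi than at 3 dpi, by 2.38 on the log2 scale in a test of the interaction (edgeR adjusted p = 0.000862, Benjamini-Hochberg). Over 6 alternatives this difference ran from 1.39 to 2.45, with adjusted p from 7.84e-05 to 0.00812. The test was chosen after the profile had been seen, and its spread comes from the pair of hearts at 5 dpi alone, so its p-value holds only if the single heart at 3 dpi varies like them. It could not be fitted without either 5 dpi section, because no residual degrees of freedom remain.

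Between poor and low spots, Sfrp1 went in opposite directions, with a log2 CPM ratio of -0.76 at 3 dpi and 0.47 in 5 dpi F and 0.79 in 5 dpi M. The test of this difference gave 1.40 (edgeR adjusted p = 0.0960) and did not pass the threshold, which it did with all spots under tissue kept (1.39, edgeR adjusted p = 0.0277), 1 of 6 alternatives with adjusted p from 0.0277 to 1. Frzb went in opposite directions between the core and the rim of the infarct, with -0.15 at 3 dpi and 0.24 and 0.69 at 5 dpi, and the difference was not tested.

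5 dpi M holds 623 spots outside the tissue mask with 2229014 non-mitochondrial UMIs, which enter no comparison above. In these spots Sfrp1 was at 122 CPM, Sfrp2 at 83.9, Frzb at 65.5, Dkk2 at 10.8 and Dkk3 at 46.7, each with a lower 95% limit above the upper limit of the control section. Sfrp4, with 9 UMIs, and Wif1, with 1 UMI, were not.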

How the results depend on the processing

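Sfrp1, Sfrp2, Frzb and Dkk3 were called higher in poor against rich spots in all 13 alternatives, and the count of members was 5, Dkk2 included, without the filter on low counts and for the infarct zone against the remote zone, where Dkk2 had 0, 1 and 0 remote UMIs and passed the filter through the infarct zone. Without that filter 1 member, Wif1, was lower in poor against rich spots, and between poor and low spots 2 members were higher and 1, Dkk3, lower. With class limits 0.2, 0.4 and 0.8, 0 members were higher between poor and low spots by edgeR (Sfrp2 at 0.58, adjusted p = 0.0515). Leaving out 1 section in turn gave 5133 to 5201 calls over all genes in poor against rich spots, 2310 to 2328 in low against rich, 1582 to 2244 in poor against low and 1138 to 2486 in core against rim. In these fits 4 members were higher in poor against rich, 3 to 4 in low against rich and 1 in poor against low, and 1 was lower in core against rim. Sfrp1 in low against rich spots also missed the threshold with DESeq2 (log2 1.41, adjusted p = 0.0520) and without the section block (1.51, edgeR adjusted p = 0.0522), at values near the 1.47 of the report. Over all genes, low against rich gave 1816 calls with library sizes from fibroblast genes and 1997 with class limits 0.35, 0.5 and 0.65, against 3172. Core against rim gave 1045 with DESeq2, 6372 with library sizes from fibroblast genes and 1025 without the section block, against 1922. There the count of members lower was 0 with DESeq2, with fibroblast library sizes and without the block, and 3 with the zone limit at 0.35, and 2 members were higher with fibroblast library sizes, Frzb (0.73) and Sfrp2, which reversed to 0.52 (adjusted p = 0.0154), where all genes shifted by a median of 0.66 and 56.7% were called higher. The further Wnt genes gave 17 higher and 4 lower without TMM, 3 lower with fibroblast library sizes, and 7 to 11 higher and 4 to 7 lower with 1 section left out. The cause of these changes was not tested. The share of calls that were higher moved with scaling, from 36.6% to 92.9% in core against rim with fibroblast library sizes, and to 59.8% without TMM. Without TMM it was also 73.6% in low against rich and 62.2% in poor against low. The 5 members higher in whole sections were the same in all 7 alternatives. No paired analysis was possible because replicate numbers are not shared between groups beyond 1, and the section block takes the place of pairing. The number of UMIs limits Sfrp4, Dkk2 and Wif1, and 1 heart at 3 dpi and 1 control limit every comparison of times.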
